A study of Mus musculus with 26 samples.

Results

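Transcripts of 8 genes expressed by myelinating oligodendrocytes (Mbp, Mog, Cnp, Mobp, Cldn11, Ermn, Mal and Opalin) were followed through 26 RNA-seq libraries of mouse microglia. They were found by matching their symbols to the Ensembl identifiers of the deposited count tables, which held 52636 genes, and all 8 were among the 21371 genes expressed highly enough to be tested. The study varied the copies of Tmem106b, which encodes a lysosomal membrane protein, and of Grn, which encodes progranulin. The Tmem106b KO libraries are all Grn WT. The 7 genotype groups were Tmem106b WT Grn WT (3 libraries), Tmem106b WT Grn HET (5), Tmem106b WT Grn KO (4), Tmem106b HET Grn WT (4), Tmem106b HET Grn HET (3), Tmem106b HET Grn KO (3) and Tmem106b KO Grn WT (4). WT, HET and KO stand for wild type, heterozygous and knockout. The labels also gave the sex (14 female and 12 male libraries) and a dissection, Entire in 18 libraries and Hemi in 8, without saying what these words mean. How the alleles were made, the age of the mice and the way the microglia were isolated are not stated in the sources used here. Nor do the labels say that each library came from its own animal, so the p-values reflect how far these libraries differ, which may in part be technical.

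Oligodendrocytes wrap axons of the central nervous system in compacted membrane. Mbp (myelin basic protein) holds the cytoplasmic faces of that membrane together, Mobp is a related small basic protein of compact myelin, and Mal is a membrane proteolipid that takes part in sorting of myelin components. Cnp is an enzyme of the cytoplasmic channels of myelin, Ermn an actin-associated protein of oligodendrocytes, Cldn11 the claudin that forms the tight junctions of myelin, Mog a surface protein of the outermost lamella, and Opalin a glycoprotein of oligodendrocytes. Mbp and Mobp mRNAs are known to be carried into oligodendrocyte processes and translated near the myelin sheath. In the GENCODE annotation of GRCm38 the members other than Mbp lie at chr9:120149707-120181484 (Mobp), chr2:127633226-127656695 (Mal), chr11:100574904-100591729 (Cnp), chr2:58045113-58052864 (Ermn), chr3:31149920-31164324 (Cldn11), chr17:37010743-37023398 (Mog) and chr19:41061710-41077113 (Opalin), and the counts cover their exons. None of these genes is a defining marker of microglia, although the Mbp gene also produces golli transcripts, which immune cells can express, and counts per gene do not separate these from myelin transcripts.

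Because the transcripts moved together across the libraries, their promoters were searched for letters that oligodendrocyte transcription factors are known to recognise. RefSeq promoter sequences (GRCm38.p6) were at hand for 7 of the 8 members; none was found for Mbp. The 250 bases before each annotated start were searched on both strands for a SOX-type motif, ACAAAG, recognised by the family of Sox10, and for a MYRF-type motif, CTGGCAC or CTGGTAC, recognised by the myelin regulatory factor Myrf. E-boxes (CAGCTG or CATATG), of the kind that Olig factors recognise, the CCAAT box (CCAAT) and the TATA box (TATAAA) were searched likewise. The 4 promoters with a SOX-type or MYRF-type match are shown from 250 to 51 bases before the start, 5′ to 3′ on the strand of the gene, with these matches in capitals. They lie at chr9:120149492-120149691 (Mobp, plus strand), chr11:100574689-100574888 (Cnp, plus strand), chr17:37023449-37023648 (Mog, minus strand) and chr19:41077164-41077363 (Opalin, minus strand).
Mobp: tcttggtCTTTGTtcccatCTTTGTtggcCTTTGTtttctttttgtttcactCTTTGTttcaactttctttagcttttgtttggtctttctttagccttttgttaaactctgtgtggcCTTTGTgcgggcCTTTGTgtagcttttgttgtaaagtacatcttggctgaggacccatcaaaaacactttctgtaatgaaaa
Cnp: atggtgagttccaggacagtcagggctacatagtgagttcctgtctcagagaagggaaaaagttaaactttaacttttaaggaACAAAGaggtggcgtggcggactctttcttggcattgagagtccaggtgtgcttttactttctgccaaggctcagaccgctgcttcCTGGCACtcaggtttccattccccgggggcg
Mog: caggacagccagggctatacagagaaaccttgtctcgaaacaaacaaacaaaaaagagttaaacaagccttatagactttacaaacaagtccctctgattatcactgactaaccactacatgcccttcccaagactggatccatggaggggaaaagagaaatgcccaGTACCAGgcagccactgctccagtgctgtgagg
Opalin: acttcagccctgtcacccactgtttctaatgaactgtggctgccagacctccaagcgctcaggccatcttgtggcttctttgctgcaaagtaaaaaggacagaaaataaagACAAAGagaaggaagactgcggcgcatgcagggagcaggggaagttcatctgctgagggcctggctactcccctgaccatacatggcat

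Mobp carried 6 SOX-type matches, all as CTTTGT on its own strand, between 243 and 115 bases before its start. It was the only one of 32851 promoters in the table with 6 or more (0.00304%). That cut is Mobp's own count, so the share describes this promoter and is not a test. The matches lie in a stretch rich in T that repeats near copies such as cttttgtt. Cnp had 1 SOX-type match, 167 bases before the start, and 1 MYRF-type match, 81 bases before it. Mog had 1 MYRF-type match, GTACCAG, beginning 83 bases before the start, and Opalin 1 SOX-type match at 139 bases. No match to either motif stood in the windows of Ermn, Mal and Cldn11. A SOX-type match was present in 16.5% of all promoters and a MYRF-type match in 5.93%, so single matches are common. None of the 7 windows held an E-box, which 16.1% of all promoters held, or a TATA box (12.4%). A CCAAT box stood once in Ermn and 2 times in Cldn11 (33.8% of all promoters). These matches describe letters only, since binding was not measured here.

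Myelin transcripts were present in all 26 libraries, at very unequal levels. Gene lengths were taken into account with the RPKM values deposited by the authors (reads scaled by gene length and library size). On that scale Cnp had the highest mean, 210 ± 230 RPKM (SD, n = 26), followed by Mbp (105 ± 135), Mal (36.2 ± 49.7), Mog (34.4 ± 51.5), Mobp (27.8 ± 37.1), Ermn (16.1 ± 22.4), Opalin (15.0 ± 22.4) and Cldn11 (2.11 ± 2.96). Each SD exceeded its mean, and neighbours in this order differed by less than the spread over libraries. All values below are CPM, counts per 1 M of a library's summed counts of tested genes, after TMM scaling of that sum (an adjustment for composition). CPM compare one gene between libraries and not one gene with another. Before scaling by length Mbp had the higher mean, 999 CPM against 587 CPM of Cnp. The RPKM order of Cnp above Mbp thus depends on the lengths used, 8057 bases for Mbp and 2357 for Cnp. The lengths of the transcripts present were not measured here. Summed over the 8 members, the level ranged from 271 CPM to 11817.5 CPM, a 43.6-fold range, with a median of 1175 CPM.

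The level of any member varied strongly within most genotype groups. Mbp stood at 1841, 1994 and 388 CPM in the 3 Tmem106b WT Grn WT libraries. In Tmem106b WT Grn HET it stood at 721, 311, 2145, 802 and 722 CPM, and in Tmem106b WT Grn KO at 452, 2854, 547 and 578 CPM. Thus 1 wild-type library was lower than all 4 libraries without Grn, and 1 Grn KO library was higher than every wild-type library. With 1 Tmem106b allele lost, Mbp stood at 1493, 188, 5878 and 507 CPM in Grn WT, at 1025, 428 and 672 CPM in Grn HET and at 594, 340 and 187 CPM in Grn KO. In Tmem106b KO Grn WT it stood at 483, 137, 257 and 442 CPM. Both the highest and the lowest Mbp level among Grn WT libraries carrying a Tmem106b allele thus belonged to Tmem106b HET Grn WT.

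**Figure D1:**
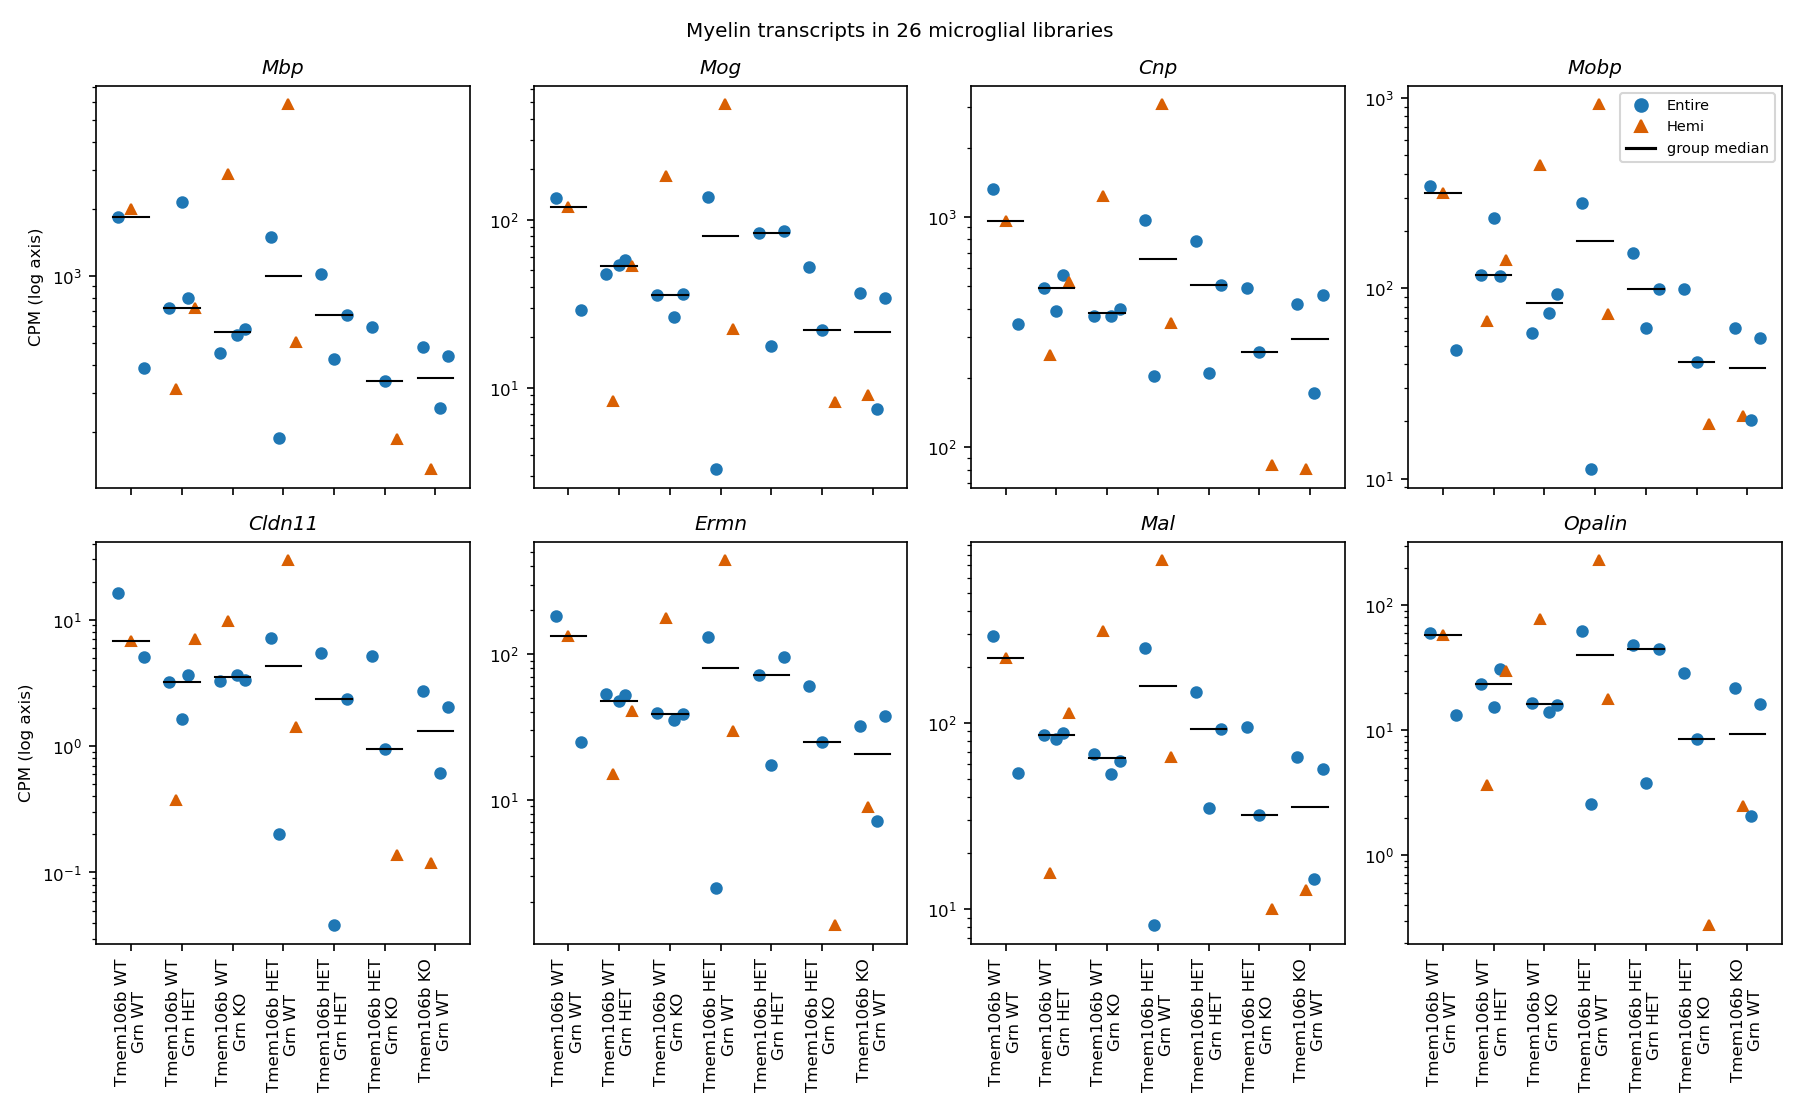
CPM of each of the 8 transcripts (log axis) in every library, by genotype group; circles are Entire and triangles Hemi libraries, and the black line is the group median. The Tmem106b HET Grn WT group spans Mbp levels of 188 to 5878 CPM, and the 8 panels repeat much the same arrangement of points.

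The other members followed the same libraries. Replicate 3 of Tmem106b HET Grn WT was the highest library for all 8, with 487 CPM of Mog, 3081 of Cnp, 927 of Mobp, 29.5 of Cldn11, 440 of Ermn, 745 of Mal and 229 of Opalin. The low end was shared by a few libraries. Replicate 2 of the same genotype group had the lowest Mog (3.26 CPM), Mobp (11.2 CPM) and Mal (8.16 CPM), replicate 2 of Tmem106b KO Grn WT the lowest Mbp and Cnp (80.2 CPM), and replicate 3 of Tmem106b HET Grn KO the lowest Ermn (1.37 CPM) and Opalin (0.274 CPM). Cldn11 was the scarcest member, with 2 to 1667 counts per library, so its low values rest on a few reads.

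Loss of both Grn copies was examined on each Tmem106b background with edgeR's quasi-likelihood test, adjusted for sex and dissection, with Benjamini-Hochberg adjustment over all genes. In Tmem106b HET Grn WT and Tmem106b HET Grn KO every Entire library was female and every Hemi library male. In Tmem106b WT Grn WT the Entire libraries were male and the Hemi library female. Within these groups sex and dissection cannot be told apart, so their adjustment relies on effects shared across all groups. With both Tmem106b alleles present, all 8 members had fitted levels below wild type, by log2 differences of -0.83 to -0.59 (median -0.62, against 0.10 over all genes). No member passed the threshold of an adjusted p of 0.05, which 0.576% of all genes passed, and the smallest adjusted p was 0.82. An unadjusted p under 0.05 was found for no member and for 2647 of the 21371 genes tested. DESeq2 and limma-voom also called no member. The median without Grn KO replicate 2 was -1.65, and without wild-type replicate 1 it was -0.043, where Mobp turned positive (0.039). In the same comparison all 12 neuron markers had fitted values above 0 (median 2.01) and none passed, and all 12 markers of homeostatic microglia had values below 0 (median -1.07), with Tmem119 and Selplg lower in edgeR (adjusted p of 0.044 and 0.045). The summed neuron markers ranged from 567 to 947 CPM with Grn KO and from 115 to 1268 CPM in the wild type, and the summed microglial markers from 27704 to 42112 CPM and from 47088 to 69883 CPM; their part in the myelin values was not tested.

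With 1 Tmem106b allele lost, the Grn KO libraries had lower fitted levels of all 8 members, by log2 differences of -2.49 to -1.81 (median -2.33, against -0.024 over all genes). Mobp, the compact myelin protein, stood at 99.5, 41.0 and 19.3 CPM in the 3 libraries of Tmem106b HET Grn KO, whereas it stood at 282, 11.2, 927 and 73.2 CPM in the 4 Grn WT libraries. The Grn WT group held both the highest and the lowest of these 7 values, so the groups overlapped. The Mobp difference was -2.43 ± 1.15 (log2, SE), with an adjusted p of 0.16 in edgeR, and that of Mbp was -2.32 ± 1.07, with an adjusted p of 0.15. Mog, the surface protein, stood at 52.3, 22.0 and 8.28 CPM in Grn KO and at 137, 3.26, 487 and 22.4 CPM in Grn WT, and its difference was -2.34 ± 1.32 (adjusted p = 0.24, edgeR).

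No member passed in edgeR in this comparison, in which 14.5% of all genes passed. An unadjusted p under 0.05 was found for 2 members, Mbp and Mobp, and for 6366 of the 21371 genes tested. DESeq2 called those 2 members, with adjusted p of 0.034 for Mbp and 0.038 for Mobp, and 24.6% of all genes, whereas limma-voom called none. The differences rested on single libraries: the median of the 8 was -1.06 without Tmem106b HET Grn WT replicate 3, -1.49 and -3.23 without replicates 3 and 1 of Tmem106b HET Grn KO, and -0.87 in the Entire libraries alone. Over all alternatives the adjusted p ranged from 0.034 to 0.60 for Mbp and from 0.038 to 0.62 for Mobp.

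Markers of other cell types moved in the same comparison. Of 12 neuron markers, 10 were higher in Tmem106b HET Grn KO than in Tmem106b HET Grn WT (median log2 difference 3.46) and none lower, where 8.42% of all genes were higher. Of 12 markers of homeostatic microglia, 10 were lower (median -1.77) and none higher, where 6.05% of all genes were lower. The summed neuron markers ranged from 644 to 5862 CPM with Grn KO and from 72.5 to 1307 CPM in the 4 Grn WT libraries, and the summed microglial markers from 8520 to 42459 CPM and from 40697 to 69298 CPM. Of 10 endothelial markers all had fitted values below 0 (median -3.15), and Pecam1, an endothelial adhesion molecule, passed (-3.41 ± 1.01, adjusted p = 0.030 in edgeR). All 8 mural markers had values below 0 (median -2.61) and none passed. Of 10 astrocyte markers 9 had values below 0 (median -0.74), and Slc1a3, a glutamate transporter, passed (-1.67 ± 0.38, adjusted p = 0.0079). The summed endothelial markers ranged from 43.4 to 59.2 CPM with Grn KO and from 40.9 to 650.4 CPM with Grn WT, the mural markers from 60.7 to 142 CPM and from 156 to 468 CPM, and the astrocyte markers from 208 to 378 CPM and from 307 to 1035 CPM. The highest value of each of these 3 sums among the Grn WT libraries was in replicate 3, which was also highest in myelin. In bulk RNA, fewer cells of a type and less RNA per cell cannot be told apart, and the part of these other cell types in the myelin values was not tested. Without the 2 libraries of highest neuron marker sum (replicate 3 of Tmem106b HET Grn KO and replicate 2 of Tmem106b KO Grn WT), the median of the members was -1.26 and no member passed.

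Grn HET libraries were compared with Grn WT in the same way. Every Tmem106b HET Grn HET library was Entire, whereas replicates 3 and 4 of Tmem106b HET Grn WT were Hemi. The dissection adjustment of each comparison with Tmem106b HET Grn HET, its interaction term included, therefore came from other groups. All 8 members had lower fitted levels on both backgrounds, with a median log2 difference of -1.10 with both Tmem106b alleles and -1.11 with 1. No member and no gene passed in edgeR or in limma-voom; 734 and 1183 genes had an unadjusted p under 0.05, none of them a member, and DESeq2 called 298 and 297 genes, none of them a member. With 1 Tmem106b allele the direction depended on replicate 3 of Tmem106b HET Grn WT, without which the median was 0.34, and limma-voom gave positive values for Mog (0.26), Ermn (0.34) and Mobp (0.076). With both alleles, Mbp and Mobp turned positive (0.020 and 0.052) without wild-type replicate 1. All comparisons within a Tmem106b background share their Grn WT libraries, so their common direction is not independent evidence.

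Libraries labelled Tmem106b KO were compared with wild type in Grn WT mice. Tmem106b itself fell from 77.6 ± 10.1 CPM (SD, n = 3) to 28.2 ± 5.13 CPM (n = 4), a log2 difference of -1.49 with an adjusted p of 0.027 in edgeR, and was the 1 gene that passed (0.00468% of all genes). All 8 members had lower fitted levels in the knockout, by -2.62 to -1.59 (median -2.12, against 0.067 over all genes). Mobp stood at 61.8, 21.3, 20.3 and 55.1 CPM in the knockout and at 343, 317 and 47.7 CPM in the wild type; 1 wild-type library lay among the knockout libraries. Its difference was -2.42 ± 0.996 (log2, SE), with an unadjusted p of 0.025 and an adjusted p of 0.43 in edgeR.

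Cldn11, the tight junction claudin, was the 1 member whose groups did not overlap in that comparison, as was the case for 4.6% of all genes. It stood at 2.75, 0.118, 0.609 and 2.05 CPM in the knockout libraries and at 16.1, 6.73 and 5.03 CPM in the wild-type libraries. Its log2 difference was -2.62 ± 1.45 (SE), with an adjusted p of 0.50 in edgeR. Mal stood at 65.8, 12.6, 14.6 and 56.1 CPM against 291, 224 and 53.6 CPM, a difference of -2.25 ± 1.09 (adjusted p = 0.46, edgeR), and its lowest wild-type library lay below 2 of the knockout libraries. Mbp and Mobp had an unadjusted p under 0.05, as was the case for 2349 of the 21371 genes tested. Neither DESeq2 nor limma-voom called a member. The median of the 8 was -1.23 without wild-type replicate 1 and -1.64 in the Entire libraries alone, and it was negative under each of 34 alternatives.

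Markers of other cells had these values in Tmem106b KO versus WT. Neuron markers had a median log2 difference of 1.94 (11 of 12 above 0) and markers of homeostatic microglia -0.68 (12 of 12 below 0). Of 10 choroid plexus and ependymal markers, 9 had fitted values above 0, and no marker of these lists passed in edgeR. The neuron sums ranged from 279 to 5836 CPM in the knockout and from 115 to 1268 CPM in the wild type, the choroid plexus and ependymal sums from 21.9 to 737 CPM and from 7.95 to 16.5 CPM, and the microglial sums from 8458 to 65165 CPM and from 47088 to 69883 CPM. Their part in the myelin values was not tested.

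In the other 7 pairwise comparisons the groups overlapped for every member. Groups without overlap were found for 16.2% of all genes in Grn KO versus WT in Tmem106b WT, 19.2% in Grn KO versus WT in Tmem106b HET, 2.03% and 7.08% in the Grn HET comparisons on these backgrounds, and 4.01%, 6.03% and 6.13% in Tmem106b HET versus WT in Grn WT, Grn HET and Grn KO.

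The loss of 1 Tmem106b allele gave medians whose sign changed in Grn WT and Grn HET when single libraries were left out. The median log2 difference of the 8 members between Tmem106b HET and WT was 0.35 in Grn WT, 0.33 in Grn HET and -1.20 in Grn KO. In Grn WT it was -1.13 without Tmem106b HET Grn WT replicate 3 and 1.11 without wild-type replicate 1. In Grn HET it was -0.18 and 0.91 without replicates 1 and 2 of Tmem106b HET Grn HET. In Grn KO it was -0.35 without Tmem106b WT Grn KO replicate 2 and 0.11 in the Entire libraries alone. No gene passed in edgeR or limma-voom in these comparisons. Tmem106b itself had fitted log2 differences of -0.30, -0.30 and -0.40. In all, 745, 1451 and 811 genes had an unadjusted p under 0.05, none of them a member. DESeq2 called 271, 528 and 89 genes and no member. Whether the Grn KO difference depended on the Tmem106b allele was tested by an interaction term, whose median over the members was -1.61, with a smallest adjusted p of 0.87 in edgeR; it was 0.24 in the Entire libraries alone. The corresponding term for Grn HET had a median of -0.013, which was 1.45 without Tmem106b HET Grn WT replicate 3 and -0.58 without Tmem106b WT Grn KO replicate 2. No gene passed either interaction test in edgeR or limma-voom. Unadjusted p under 0.05 were found for 917 and 1196 genes, and DESeq2 called 207 and 415, none of them a member.

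**Figure D2:**
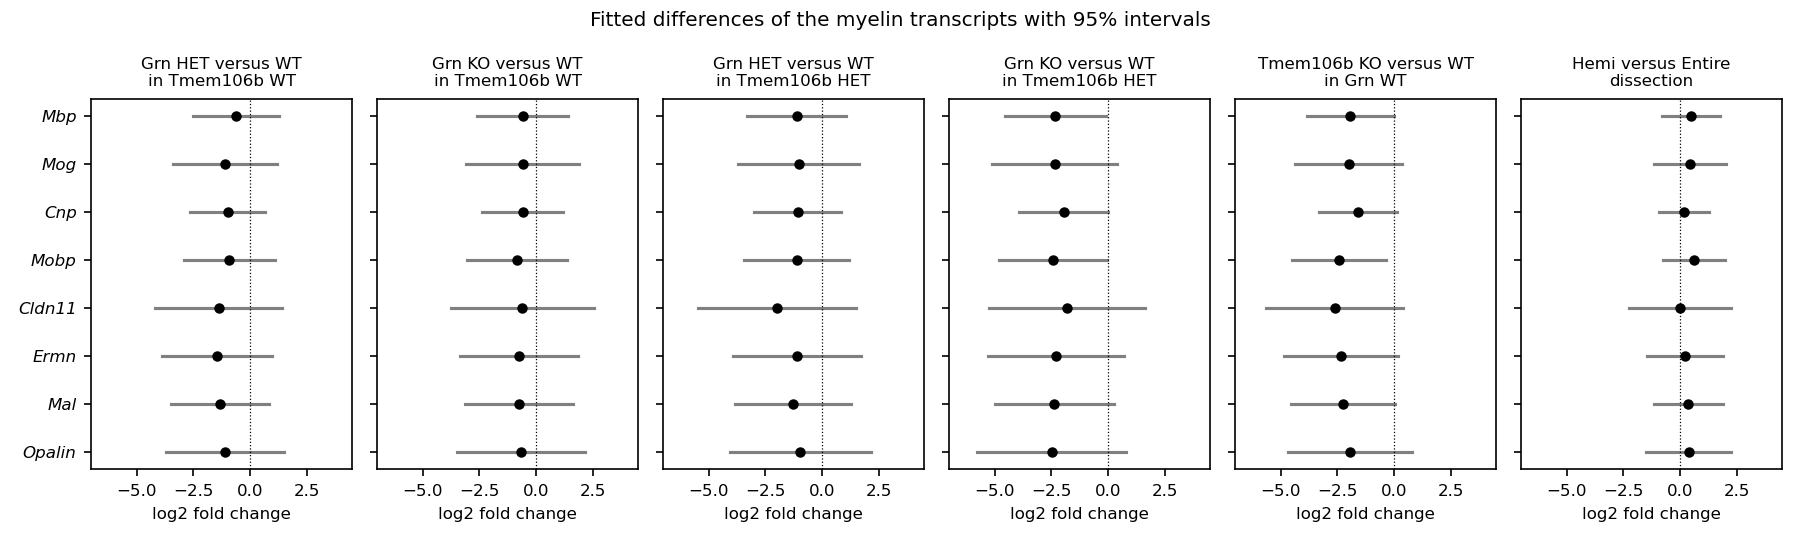
Fitted log2 differences of the 8 transcripts (points) with 95% confidence intervals (lines) in 5 genotype comparisons and between dissections; the dotted line marks 0. All points of these 5 genotype comparisons, which share Grn WT libraries, lie below 0, and most intervals include it. The intervals of Mbp and Mobp exclude it in Grn KO versus WT in Tmem106b HET and in Tmem106b KO versus WT, at unadjusted p. Tmem106b HET versus WT is not drawn: there 8 of the 8 members lay above 0 in Grn WT, 6 in Grn HET and 0 in Grn KO.

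The dissection label did not separate the members either. The summed level was 1557 ± 1025 CPM in the 18 Entire libraries and 3108 ± 3951 CPM in the 8 Hemi libraries, and the Hemi libraries held both the highest and the lowest sum of the study. Fitted log2 differences of Hemi against Entire ran from 0.0064 (Cldn11) to 0.63 (Mobp), with a median of 0.38 against -0.086 over all genes. The smallest adjusted p was 0.54 in edgeR, and no member was called by DESeq2 or limma-voom, in a comparison in which 20.7% of all genes passed. An unadjusted p under 0.05 was found for no member and for 7077 of the 21371 genes tested. The median was -0.36 without Tmem106b WT Grn KO replicate 2 and -0.11 without Tmem106b HET Grn WT replicate 3. Between female and male libraries the median was 0.12, and -0.21 without Tmem106b WT Grn KO replicate 2. No member passed in edgeR, DESeq2 or limma-voom, and 0.0281% of all genes passed in edgeR. An unadjusted p under 0.05 was found for no member and for 681 of the 21371 genes tested.

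Genes of earlier stages of the oligodendrocyte lineage were examined in the dissection comparison. Of 10 genes of oligodendrocyte precursors, 4 were higher in Hemi libraries and none lower (median 2.11); of all genes, 11.7% were higher and 9.03% lower. C1ql1 rose by 2.21 ± 0.44 (log2, SE; adjusted p = 0.0023), Lhfpl3 by 2.37 ± 0.64 (0.013), Gpr17, a receptor of cells committed to differentiate, by 2.50 ± 0.82 (0.036) and Ptprz1, a receptor phosphatase, by 1.41 ± 0.43 (0.025), all in edgeR. Of 10 genes of newly formed oligodendrocytes, Fyn and Tcf7l2 were higher, and Itpr2 and Rras2 lower, with a list median of 0.00020. Whether these lists differ from the members was not tested. Several of these genes are also expressed by neurons or microglia: in the same comparison 11 of 12 neuron markers were higher (median 2.68) and 11 of 12 markers of homeostatic microglia lower (median -0.94), and their part in the lineage values was not tested.

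Other myelin and paranode proteins and enzymes of myelin lipid synthesis passed between dissections at shares below that of all genes, 20.7%. Of 20 other myelin and paranode proteins, Nfasc (1.56 ± 0.46, log2, SE) and Omg (1.43 ± 0.49) were higher in Hemi libraries and Cd9 was lower (-0.84 ± 0.26), in edgeR at adjusted p of 0.022, 0.045 and 0.029. Neurons also express Nfasc, and microglia Cd9. Of 10 enzymes of myelin lipid synthesis, Elovl1, a fatty acid elongase, was lower (-0.76 ± 0.25, adjusted p = 0.039). Of 3 tested genes of peripheral myelin, 1 passed: Pmp22 was lower (-0.82 ± 0.23, adjusted p = 0.017 in edgeR). None of 20 other genes of mature oligodendrocytes and none of 10 oligodendrocyte transcription factors passed in edgeR; all 10 factors had positive fitted values (median 0.83).

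In Tmem106b HET libraries, Grn KO against Grn WT, calls in the same lists are read against the 14.5% of all genes that passed. Of the 10 precursor genes, 1 passed: Lhfpl3 was higher (3.46 ± 1.10, adjusted p = 0.040 in edgeR). Of the 10 genes of newly formed oligodendrocytes, 3 passed: Tcf7l2 was higher (1.95 ± 0.47, adjusted p = 0.011) and Itpr2 (-1.65 ± 0.50, 0.032) and Rras2 (-0.98 ± 0.30, 0.034) were lower. No gene of the 20 other myelin proteins (median -2.13), the 10 lipid enzymes (-0.95), the 20 other genes of mature oligodendrocytes (-1.50) or the 10 transcription factors (-2.21) passed. In the comparisons of Grn KO with WT with both Tmem106b alleles and of Tmem106b KO with WT, no gene of any of these lists passed; the medians of the other myelin proteins were -0.51 and -1.80.

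The 8 members varied together from library to library. Over the 26 libraries, Pearson's r between the log2 CPM of 2 members ranged from 0.775 to 0.984 over their 28 pairs, with a median of 0.922. Mal lay closest to the mean of the other 7 (r = 0.987), followed by Mog (0.968), and Cldn11 lay farthest (0.868). These values describe 26 libraries that share preparation and scaling, and they are given without a test.

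Among the 10 other genes most like the members, by r with the mean of the 8, were Cryab, a small heat shock protein (0.980), Tmem88b (0.970), Car2, a carbonic anhydrase (0.965), Gjb1, a gap junction connexin (0.962) and Mag, a myelin adhesion molecule (0.962). Also among them were Cmtm5 (0.956), Il33, an alarmin cytokine (0.954), Csrp1 (0.953) and Hepacam, an adhesion protein of glia (0.947). Mag ranged from 47.3 to 1823 CPM. Of all 21371 genes tested, 102 (0.477%, the members included) had an r over 0.8, and the median gene had 0.059.

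Likeness differed by stage and cell type. The median r was 0.885 for the 20 other myelin and paranode proteins, 0.833 for the 20 other genes of mature oligodendrocytes and 0.777 for the 10 transcription factors, among them Olig1 (0.922), Sox10 (0.917) and Myrf (0.805). It was 0.589 for the lipid enzymes, where Fa2h (0.942), Ugt8a (0.924) and Aspa (0.914) stood above the more widely expressed Cers2 (0.655) and Degs1 (0.437). It was 0.335 for precursor genes and 0.359 for newly formed oligodendrocytes, of which Enpp6 alone exceeded 0.8 (0.887). For other cells the medians were 0.605 for astrocytes, 0.497 for mural cells, 0.440 for endothelial cells, 0.399 for homeostatic microglia, 0.010 for choroid plexus and ependymal cells and -0.386 for neurons. Of 5 genes of peripheral myelin, 3 were expressed highly enough to be tested, with a median of 0.263.

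**Figure D3:**
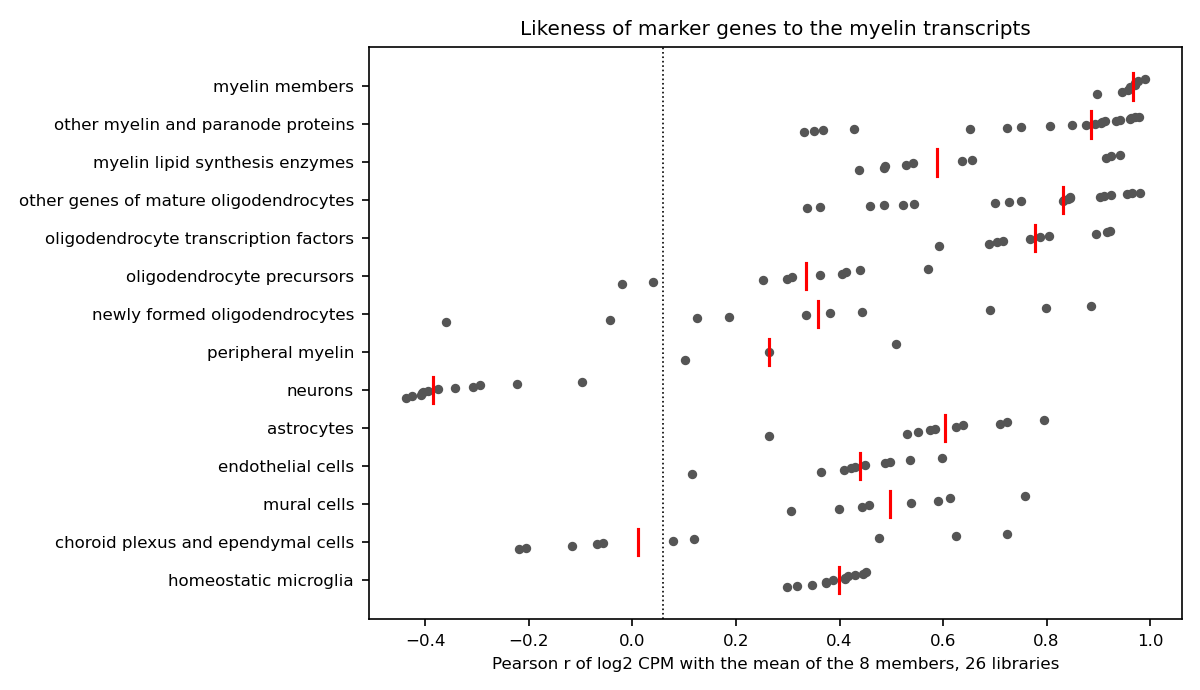
Pearson's r over 26 libraries between the log2 CPM of each marker gene (points) and the mean of the 8 members, by list; red lines are list medians and the dotted line the median of all genes tested. Lists of mature oligodendrocytes and myelin lie to the right, and precursor, microglial and neuronal lists to the left of them.

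Within the Hemi libraries, myelin and neuron transcripts stood in nearly opposite order. In the libraries with the 2 lowest neuron sums, 567 and 657 CPM, the members summed to 5289 and 11817.5 CPM. At neuron sums of 1122, 1268 and 1307 CPM they summed to 1627, 3812 and 1063 CPM. At 2556, 5836 and 5862 CPM they summed to 673, 271 and 310 CPM. The Hemi libraries with more neuronal RNA were therefore the poorer ones in myelin RNA, and the 2 highest in neuron markers also had the lowest microglial sums of the study, 8458 and 8520 CPM.

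In the Entire libraries low myelin did not go with high neuron sums in each case. The lowest Entire library in myelin, replicate 2 of Tmem106b HET Grn WT (420 CPM), had a neuron sum of 80.9 CPM and the highest microglial sum of its group, 69298 CPM. The next lowest, replicate 3 of Tmem106b KO Grn WT (482 CPM), had a neuron sum of 992 CPM. The part of neuronal RNA in the myelin values was not tested.

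**Figure D4:**
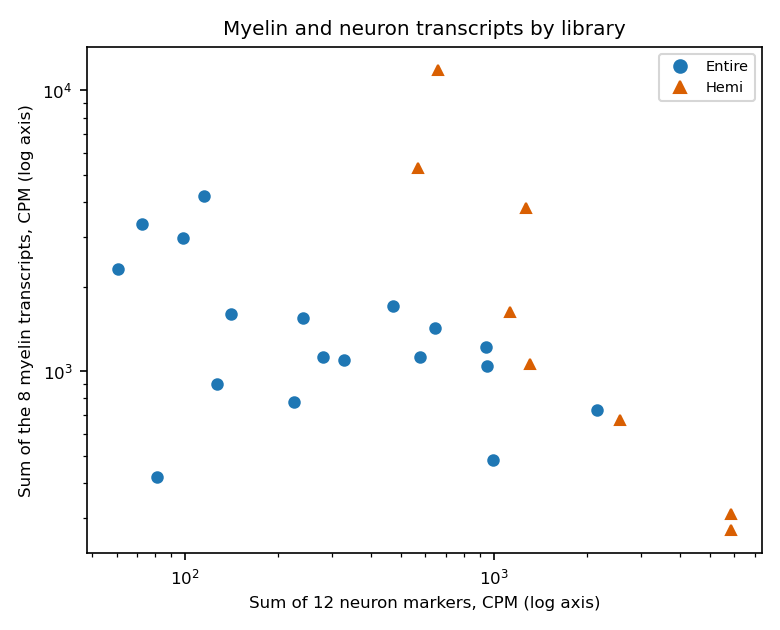
Sum of the 8 myelin transcripts against the sum of 12 neuron markers, both in CPM on log axes, 1 point per library; circles are Entire and triangles Hemi. Among the Hemi libraries the myelin sum runs from 11817.5 CPM at a low neuron sum to 271 CPM at a high one, while the Entire libraries show myelin sums of 420 to 4194 CPM.

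The share of each member in the sum also varied between libraries. Mbp made up 40.2% to 72.2% of the summed CPM (median 46.7%) and Cnp 13.2% to 48.6% (median 32.5%). Shares of the scarcer members spread wider, from 0.443% to 5.95% for Ermn, 0.0885% to 2.78% for Opalin and 0.00492% to 0.557% for Cldn11. The ratio of Mbp to Cnp in CPM had a median of 1.44. It was 5.48 in replicate 3 of Tmem106b WT Grn HET and at most 2.32 in the other 25 libraries. The ratio of Mobp to Cnp was 0.600 in the same library against at most 0.363 elsewhere. Mbp and Mobp were thus high there relative to Cnp, which stood at 391 CPM within a group range of 251 to 561 CPM.

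That library also stood apart in other genes, which were chosen after their values were seen. Bcas1, a gene of newly formed and myelinating oligodendrocytes, stood at 60.3 CPM there and at 12.6 to 17.4 CPM in the other 4 libraries of the group. Gfap, an astrocyte filament protein, stood at 32.4 CPM against 1.76 to 7.15 CPM, and Tmem212 and Ccdc153, genes of ciliated ependymal cells, at 12.3 against at most 2.20 CPM and 11.3 against at most 2.47 CPM. Mag (218 CPM) lay within the range of the other 4 libraries. The part of these cells in the ratio was not tested.

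Libraries poor in myelin RNA differed in which members were scarce. In replicate 2 of Tmem106b HET Grn WT, Mog stood at 3.26, Ermn at 2.49 and Opalin at 2.57 CPM, while Mbp stood at 188 and Cnp at 204 CPM. The ratio of Cnp to Mog was 62.6 there, against a median of 10.2 over all libraries. In replicate 3 of Tmem106b HET Grn KO, Opalin stood at 0.274 and Ermn at 1.37 CPM beside 187 CPM of Mbp, 83.6 CPM of Cnp and 8.28 CPM of Mog, so that the ratio of Cnp to Mog (10.1) was near the median. The poorest library, replicate 2 of Tmem106b KO Grn WT, had 9.09 CPM of Mog, 8.95 of Ermn and 2.48 of Opalin, with a ratio of Cnp to Mog of 8.82. No library had less than 137 CPM of Mbp or 80.2 CPM of Cnp.

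**Figure D5:**
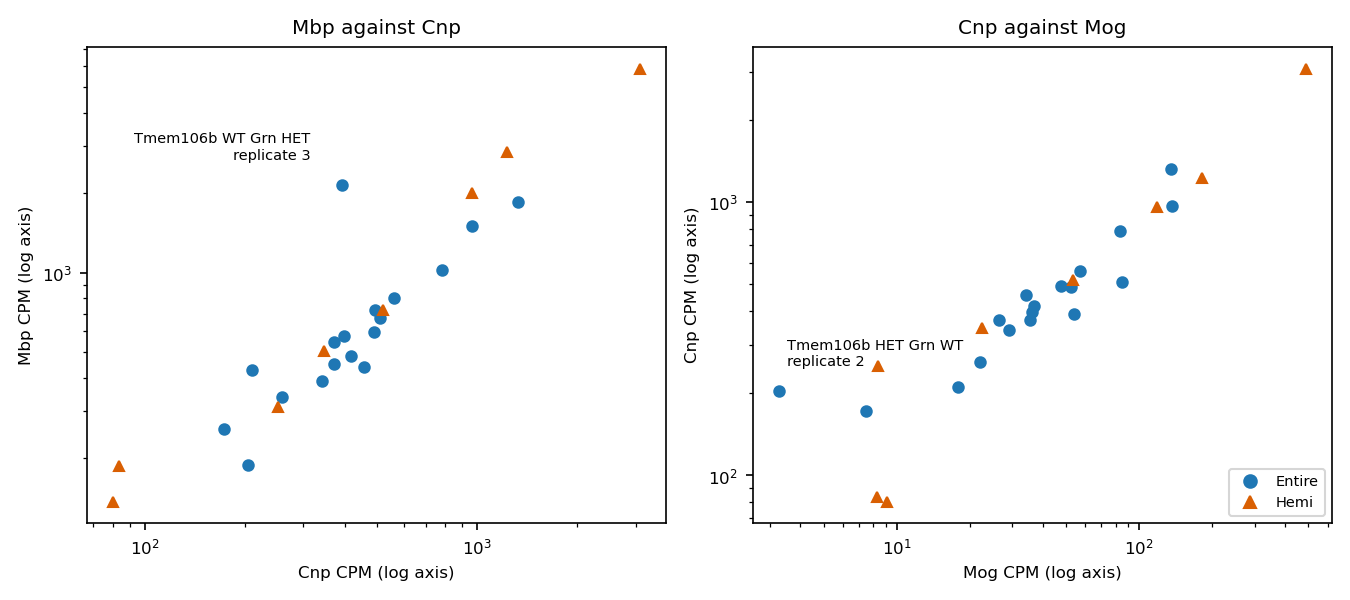
CPM of Mbp against Cnp (left) and of Cnp against Mog (right), on log axes, 1 point per library; circles are Entire and triangles Hemi. In the left panel replicate 3 of Tmem106b WT Grn HET has the highest Mbp relative to its Cnp, with a ratio of 5.48. In the right panel replicate 2 of Tmem106b HET Grn WT lies farthest left, with a ratio of 62.6.

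The libraries held 37.6 to 63.7 M gene counts, and the lowest counts of Cldn11, Opalin and Ermn in a library were 2, 16 and 80. Grn stood at 3345 ± 906 CPM in Tmem106b WT Grn WT (SD, n = 3), at 4.84 ± 7.58 CPM in Tmem106b WT Grn KO (n = 4) and at 3.23 ± 4.24 CPM in Tmem106b HET Grn KO (n = 3). For Grn HET versus WT, the fitted log2 difference of Grn was -1.59 ± 1.24 (SE) in Tmem106b WT and -0.24 ± 1.29 in Tmem106b HET. Neither passed in edgeR, so these values do not check the Grn HET labels. The 12 markers of homeostatic microglia summed to 8458 to 71161 CPM.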

How the data were processed

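Poly(A) RNA of 26 mouse microglial libraries was amplified with a SMART-Seq kit and prepared with a Nextera kit, neither of which marks strand, per the labels' protocols. The authors deposited raw exonic counts per Ensembl gene together with RPKM values, per the file headers. The submitters' processing notes name GSNAP as the aligner and GRCm38 as the build. Neither the counting tool and its annotation nor the handling of overlapping genes is given in the sources used here, nor any filter. The deposited RPKM values are used only to compare genes with each other; exonic counts made up 79.9% to 86.4% of the total behind them. Depth was 37.6 to 63.7 M counts per library, which carry no molecular identifiers.

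Counts were tested with edgeR 4.0.16 (R 4.3.3), with its expression filter on the 7 groups, TMM scaling, robust quasi-likelihood fits over all 26 libraries and sex and dissection as covariates. Tests were two-sided, and p-values were adjusted over 21371 genes, at a threshold of 0.05. Errors of fitted values are standard errors, and intervals are 95%. DESeq2 1.42.0, limma-voom (limma 3.58.1), other scalings, no filter, no covariates, Entire libraries alone and leaving out each library were the alternatives; leaving out the 2 libraries of highest neuron marker sum was chosen after seeing the data. The fits were tested on simulated data. Likeness used log2 CPM computed from the deposited counts with a prior count of 0.5. Replicate numbers only name libraries. As a check for a library deposited more than once, counts were compared between the 37 pairs of replicates of a group; none were near-identical (chi-square per gene of 31.2 to 1353).

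Named genes are the 8 members, Grn and Tmem106b, the most highly expressed or called genes of 14 marker lists, and the 10 genes most like the members, leaving out predicted genes; a few of these are not reported here. Aspa, Fa2h, Ugt8a, Enpp6, Myrf and the genes of Tmem106b WT Grn HET replicate 3 were named after their values were seen. The members and lists were chosen with earlier results of these data known.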

Additional observations from a re-analysis of the deposited data

Results flagged for a closer look

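In each genotype group of 4 or 5 libraries, each member's highest and lowest library was compared with the others by Dixon's gap at 95%. Of 32 gene and group pairs, 10 showed a library far from the rest, where chance gives about 1 in 20 for normally distributed values. CPM need not follow such a distribution, so this rate is only a guide. The pairs are not independent, since the members vary together. Replicate 2 of Tmem106b WT Grn KO, a Hemi library whose 3 companions are Entire, was the highest of its group for all 8 members, with 2854 CPM of Mbp, 183 of Mog, 1231 of Cnp, 447 of Mobp, 9.68 of Cldn11, 177 of Ermn, 310.2 of Mal and 77.6 of Opalin. Its astrocyte marker sum was 911 CPM against 370 to 499.8 CPM in the other 3 libraries, and its precursor marker sum 447 CPM against 104 to 131 CPM; its neuron marker sum, 567 CPM, was close to the next lowest, 576 CPM. Replicate 3 of Tmem106b WT Grn HET stood apart for Mbp alone, at 2145 CPM, above 311 to 802 CPM in the other 4 libraries. Replicate 2 of Tmem106b WT Grn HET was the lowest of its group for all 8 members but was flagged for Mog alone. Its Mog stood at 8.34 CPM against 47.6 to 57.3 CPM, beside a neuron marker sum of 2556 CPM, the highest of the group.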

How the results depend on the processing

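No member passed in any of the 12 tests under any alternative except with DESeq2, which called 2 members, Mbp and Mobp, in Grn KO versus WT in Tmem106b HET (adjusted p 0.034 and 0.038). The median of the members was negative under all 34 alternatives for Grn KO versus WT on both Tmem106b backgrounds, Grn HET versus WT in Tmem106b WT, and Tmem106b KO versus WT. In the Entire libraries alone, Mbp was 0.22 for Grn HET versus WT in Tmem106b WT, and the interaction of Grn KO and Tmem106b HET had a median of 0.24. With limma-voom, Mog was 0.26, Mobp 0.076 and Ermn 0.34 for Grn HET versus WT in Tmem106b HET, and Cnp -0.012 and Cldn11 -0.060 between dissections. The cause was not tested.

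Leaving out each library in turn gave these ranges of log2 differences where the sign of a member or median changed. The median ran from -1.13 to 1.11 for Tmem106b HET versus WT in Grn WT, from -0.18 to 0.91 for the same in Grn HET, from -0.58 to 1.45 for the interaction of Grn HET and Tmem106b HET, from -0.21 to 0.62 for female versus male, from -0.36 to 0.67 for Hemi versus Entire and from -1.66 to 0.34 for Grn HET versus WT in Tmem106b HET. Single members are given for the Grn and dissection comparisons. For Grn KO versus WT in Tmem106b WT, Mobp ran from -1.68 to 0.039. For Grn HET versus WT in Tmem106b WT, Mbp ran from -1.18 to 0.020 and Mobp from -1.30 to 0.052. For Grn HET versus WT in Tmem106b HET, Mbp ran from -1.66 to 0.38, Mog from -1.67 to 0.64, Cnp from -1.54 to 0.15, Mobp from -1.64 to 0.30, Ermn from -1.72 to 0.56, Mal from -1.85 to 0.056 and Opalin from -1.62 to 0.63; each positive value came without Tmem106b HET Grn WT replicate 3. For Hemi versus Entire, Mbp ran from -0.18 to 0.78, Mog from -0.33 to 0.74, Cnp from -0.35 to 0.45, Mobp from -0.029 to 1.01, Cldn11 from -0.66 to 0.34, Ermn from -0.51 to 0.59, Mal from -0.37 to 0.69 and Opalin from -0.39 to 0.72.

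No paired analysis was possible because the labels carry no replicate numbers shared between groups. How far depth adds to the width of the intervals, beside the spread between libraries of a group, was not tested. The lowest library of Cldn11 held 2 counts, that of Opalin 16 and that of Ermn 80.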
